A study of Mus musculus with 40 samples.

Results

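The 10 genes described here encode the 5 MYST lysine acetyltransferases of the mouse (Kat6a, Kat6b, Kat5, Kat7 and Kat8) and the subunits that assemble with KAT6A and KAT6B (Brpf1, Brd1, Brpf3, Ing5 and Meaf6). They were chosen by name, by their role and not by their values, although earlier results of these data were known. All 10 were found among the 26411 genes listed in each of 40 RNA-sequencing libraries. 24 libraries came from whole male E9.5 embryos of 6 genotypes and 16 from LSK cells of E14.5 fetal liver of 4 genotypes, with 4 embryos or fetuses per genotype on a C57BL/6 background. LSK cells are lineage-negative cells that carry SCA-1 and c-KIT and are enriched for hematopoietic stem and multipotent progenitor cells. They were isolated by flow sorting.

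The E9.5 genotypes were wild type (WT, Kat6a+/+;Kat6b+/+), Kat6a-/-, Kat6b-/-, Kat6a G656E/G656E (Kat6aE/E), Kat6b G577E/G577E (Kat6bE/E) and the double mutant Kat6aE/E;Kat6bE/E. In each single mutant the other gene was wild type. The sample labels write the null alleles as cfd/cfd for Kat6a and dec/dec for Kat6b. According to the methods of the study, the Kat6a null allele lacks exons 3 to 7 and the Kat6b null allele lacks exons 2 to 12, both germline deletions. In the E/E alleles a glycine in the catalytic domain is replaced by glutamate, and the rest of the protein is encoded as in WT. The LSK genotypes were WT, Kat6aE/E, Kat6bE/E and Kat6aE/E;Kat6bE/E, and no null mutants were sequenced at this stage.

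MYST proteins transfer an acetyl group from acetyl coenzyme A to lysine residues of histones. KAT6A and KAT6B are large paralogs that act in a complex of 4 proteins, in which a scaffold of the BRPF family (BRPF1, BRD1 or BRPF3) joins the enzyme to ING5, which reads methylated histone H3, and to MEAF6. KAT7 can use the same scaffolds, whereas KAT5 and KAT8 work in other complexes. KAT6A is known for its need in hematopoietic stem cells and in the patterning of the body axis, and KAT6B for its role in brain development.

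The mutated residue lies in a stretch that all 5 enzymes share. The coding sequence around its codon, 63 bases from GENCODE vM39 on GRCm39, is shown for the 5 genes so that the mutated sites can be compared with the same place in the other family members. Capitals mark the glycine codon, and each sequence is written 5′ to 3′ on the strand of its gene.
Kat6a, site of G656E: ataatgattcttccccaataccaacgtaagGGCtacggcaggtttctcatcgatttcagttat
Kat6b, site of G577E: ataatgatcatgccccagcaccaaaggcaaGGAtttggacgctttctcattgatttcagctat
Kat5, glycine 380: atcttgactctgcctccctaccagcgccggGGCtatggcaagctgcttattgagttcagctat
Kat7, glycine 485: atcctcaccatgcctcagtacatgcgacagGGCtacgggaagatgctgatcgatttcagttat
Kat8, glycine 327: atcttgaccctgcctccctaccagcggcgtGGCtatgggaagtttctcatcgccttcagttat

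The mutated codon of Kat6a is at chr8:23416459-23416461 in exon 13 of 18, on the plus strand. That of Kat6b is at chr14:21687681-21687683 in exon 12 of 17, also on the plus strand. The matching glycine codons are at chr19:5655425-5655427 in exon 11 of 14 of Kat5 (minus strand), at chr11:95171242-95171244 in exon 12 of 15 of Kat7 (minus strand) and at chr7:127523842-127523844 in exon 8 of 11 of Kat8 (plus strand). All 5 lie in coding exons. On the same build the scaffold genes Brpf1, Brd1 and Brpf3 lie at chr6:113283799-113301824, chr15:88571232-88618518 and chr17:29004247-29058923, and Ing5 and Meaf6 at chr1:93731626-93749834 and chr4:124978889-125010762. Kat6a and Kat6b were identical at 46 of the 63 bases, and Kat5 and Kat8, at 52 of 63, were the most alike of the 10 pairs. Kat6b differed most from Kat5 and Kat7, with 39 identical bases each. If the exon numbers of the study are those of the canonical GENCODE transcripts, which was not tested, the G577 codon of Kat6b lies in the last exon that the Kat6b null allele lacks, and the G656 codon of Kat6a beyond the deleted exons.

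Total counts were 8401990 to 23339359 in the E9.5 libraries and 12270376 to 59216547 in the LSK libraries. At this depth every member had at least 261 counts at E9.5 (Kat8) and at least 396 in LSK cells (Kat6b), so all 10 passed the filter on low counts in both experiments. Genes with any count numbered 12600 to 13683 in LSK libraries of Kat6aE/E fetus 2 and double mutant fetuses 2 to 4. In the other LSK libraries they numbered 16082 to 17647. The libraries with fewer genes are all among those with low Cd34 described below. The cause of this difference was not tested. Levels are given as CPM, the count of a gene relative to the scaled total of its library, with TMM scaling done separately in each experiment. Differences are log2 fold changes from a limma model with 4 surrogate variables that treats litter as a random effect. A gene is called when its FDR, the p-value adjusted by Benjamini-Hochberg across the 14183 genes tested at E9.5 or the 13071 in LSK cells, is below 0.05. Fetuses 2 to 4 of the LSK double mutant were from 1 litter that held no other genotype. All comparisons with WT within an experiment share the same 4 WT libraries. The kit did not mark strand, so reads of overlapping genes on opposite strands cannot be told apart. The largest such overlap was between Kat5 and Rnaseh2c, over 26.5% of the canonical Kat5 transcript.

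The defining markers of LSK cells were checked in the 16 LSK libraries. Kit was at 351 to 552 CPM, Cd34 at 349 to 844, Flt3 at 117 to 322 and Gata2 at 52.6 to 114. Ly6a, which encodes SCA-1, was low at 0.937 to 10.3 CPM. Of lineage markers, the T cell genes Cd3e and Cd8a were at 0 in all 16 libraries. Cd34 divided the libraries into 7 below 500 CPM (WT 4, Kat6bE/E 2 and 3, Kat6aE/E 2 and Kat6aE/E;Kat6bE/E 2 to 4), at 349 to 475 CPM, and 9 at 566 to 844 CPM. Since these are bulk libraries, fewer cells of a type and less RNA per cell cannot be told apart. At E9.5 the whole embryos had the neural gene Sox2 at 103 to 186 CPM, the cardiac gene Nkx2-5 at 8.17 to 16.3 and the embryonic globin Hbb-y at 879 to 4290.

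Kat6a was read first in the embryos that lack exons of it. In WT embryos it was at 180.0, 168.8, 186.4 and 168.5 CPM, and in Kat6a-/- embryos at 159.8, 164.8, 167.6 and 170.8 CPM. The ranges of the 2 genotypes overlapped only between 168.5 and 170.8 CPM. The log2 fold change was -0.08 (SE 0.0893, 95% CI -0.27 to 0.11, FDR 0.716 in limma), so a fall was not detected. By the same exon numbers, the deleted exons hold 14.9% of the bases of the canonical Kat6a transcript, and the mean in Kat6a-/- was 94.2% of WT. On the 85.1% of bases left, that is 1.11 times WT per retained base if reads were spread evenly, which was not tested. Counts were deposited for whole genes, so they show neither whether the deleted exons had reads nor whether a protein was made.

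Kat6b, in contrast, was higher in the embryos that lack exons of it. It was at 42.6, 38.2, 42.6 and 38.3 CPM in WT and at 54.5, 52.0, 53.2 and 58.3 CPM in Kat6b-/- embryos. All 4 Kat6b-/- values lay above all 4 WT values. The log2 fold change was 0.41 (SE 0.0651, 95% CI 0.28 to 0.54), a fold of 1.33 (95% CI 1.21 to 1.46), with an FDR of 0.00441 in limma. Kat6b was the only one of the 10 genes called in any of the 5 comparisons of an E9.5 mutant with WT, beside 0.508% of all tested genes called in Kat6b-/-. In the single litter that held both genotypes, Kat6b was at 42.6 CPM in the WT embryo and at 52.0 CPM in its Kat6b-/- littermate. By the GENCODE exon numbers, again taken as those of the study, the exons removed from Kat6b hold 27.2% of the bases of its canonical transcript. Kat6b counts therefore came to 135% of WT on 72.8% of the transcript, or 1.85 times WT per retained base if reads were spread evenly, which was not tested. Without surrogate variables the log2 fold change was 0.42 but the FDR was 0.0814, and 0 of the 14183 genes were called in that model.

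The point mutations left the count of the mutated gene close to WT. Kat6a in Kat6aE/E embryos was at 217.4, 160.4, 153.5 and 178.0 CPM, a range that covers all WT values (log2 fold change 0.03, FDR 0.949 in limma). Kat6b in Kat6bE/E embryos was at 46.9, 38.8, 42.2 and 42.4 CPM (log2 fold change 0.09, FDR 0.998). 3 of these 4 values were within the WT range of 38.2 to 42.6 CPM. When Kat6bE/E was compared with Kat6b-/- directly, Kat6b had a log2 difference of -0.32 (SE 0.0659, 95% CI -0.45 to -0.18) and a fold of 0.801 (95% CI 0.73 to 0.88). No Kat6bE/E value reached the lowest Kat6b-/- value of 52.0 CPM. This difference missed the threshold after adjustment (FDR 0.0801 in limma, 0.0353% of genes called), and passed it in edgeR's quasi-likelihood test (FDR 0.0411) and in DESeq2 (FDR 0.00406), both without the litter block. It was called in 8 of 33 alternatives in all, and without surrogate variables the FDR was 0.986 at a log2 difference of -0.33. Kat6aE/E and Kat6a-/- differed in Kat6a by 0.11 on the log2 scale, and none of the 10 members was called in that comparison, beside 1.6% of all genes. The member with the smallest FDR there was Ing5 (log2 difference -0.15, SE 0.0534, FDR 0.168).

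**Figure D1:**
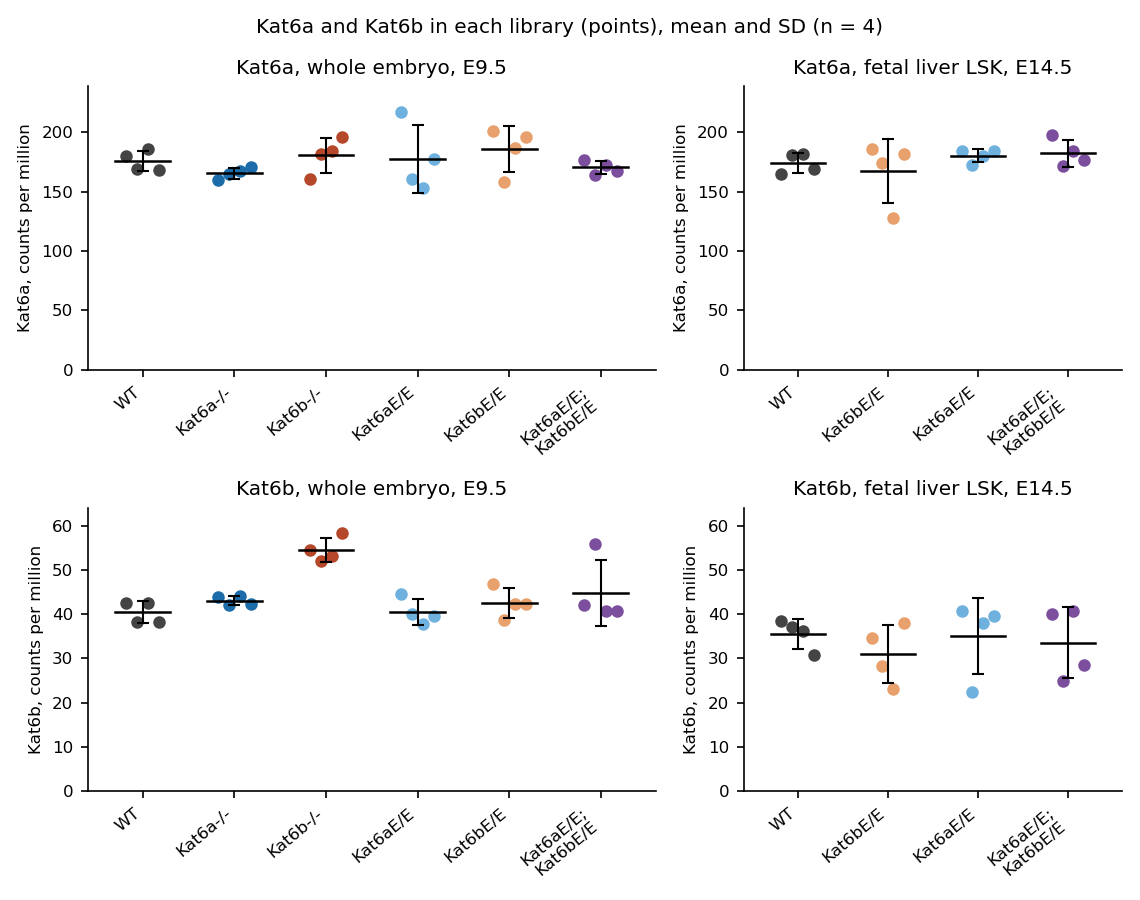
Kat6a (upper panels) and Kat6b (lower panels) in CPM in each library, at E9.5 on the left and in LSK cells on the right, with 1 point per embryo or fetus and a bar at the mean of the 4 libraries of a genotype. The 4 Kat6b-/- embryos lie at 52.0 to 58.3 CPM for Kat6b, above all other E9.5 libraries but embryo 2 of the double mutant at 56.0.

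Whether loss of one paralog came with more RNA of the other was asked in both null mutants. Kat6b in Kat6a-/- embryos was at 43.9, 42.0, 44.1 and 42.2 CPM. Both lower values lay within the WT range and both higher values above it, with a mean of 43.1 ± 1.09 CPM (SD, n=4) against 40.5 ± 2.51 in WT. The log2 fold change was 0.12 (SE 0.0663), a fold of 1.08 (95% CI 0.986 to 1.19, FDR 0.39 in limma). Within the litter that held a WT and a Kat6a-/- embryo the order was turned, with Kat6b at 42.6 CPM in WT and 42.0 CPM in Kat6a-/-. Within the same litter Kat6a was at 180.0 CPM in WT and 164.8 CPM in Kat6a-/-. Kat6a in Kat6b-/- embryos was at 160.7, 181.7, 184.1 and 196.1 CPM, a range wider than that of WT on both sides. Its log2 fold change was 0.03 (SE 0.0893), a fold of 1.02 (95% CI 0.897 to 1.17, FDR 0.936). In the litter with both genotypes it was at 186.4 CPM in WT and 181.7 CPM in Kat6b-/-. The upper bounds of these intervals were thus 1.19-fold for Kat6b and 1.17-fold for Kat6a.

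The paralogs were likewise near WT in the E/E mutants. Kat6b in Kat6aE/E was at 37.8 to 44.7 CPM (log2 fold change 0.05, FDR 0.869 in limma), and Kat6a in Kat6bE/E at 158.1 to 201.6 CPM (log2 fold change 0.07, FDR 0.998). In the litter that held a WT and a Kat6aE/E embryo, Kat6a was at 168.8 and 217.4 CPM and Kat6b at 38.2 and 44.7 CPM, in that order. In the double mutant Kat6a was at 177.1, 164.3, 172.8 and 167.7 CPM, within or just below the WT range, with a log2 fold change of -0.05 (FDR 0.825). Kat6b in the double mutant was at 42.0, 56.0, 40.7 and 40.7 CPM. Embryo 2 stood apart from the other 3, which lay within the WT range, and the log2 fold change was 0.08 with it (FDR 0.568) and 0.01 without it (FDR 0.949).

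The ratio of the paralogs gives this balance within each library, without a scaling between libraries. The log2 ratio of Kat6b to Kat6a, each per kb of gene length, was -1.86, -1.92, -1.91 and -1.92 in WT, a mean ratio of 0.268. It was -1.64, -1.75, -1.71 and -1.8 in Kat6a-/- and -1.34, -1.59, -1.57 and -1.53 in Kat6b-/-, in both null mutants above all 4 WT values. The mean differences from WT were 0.18 and 0.39, each with an exact two-sided permutation p of 0.0286, the smallest that 4 against 4 libraries allow, and 0.114 after Benjamini-Hochberg adjustment over the 8 genotypes compared. The full gene lengths were used, so both ratios also carry whatever the missing exons add or take away. In Kat6aE/E and Kat6bE/E the difference from WT was 0 (exact permutation p of 1 in both). In the double mutant it was 0.18 (exact permutation p of 0.0571, adjusted 0.152), with 3 libraries at -1.87 to -1.82 and embryo 2 at -1.33.

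**Figure D2:**
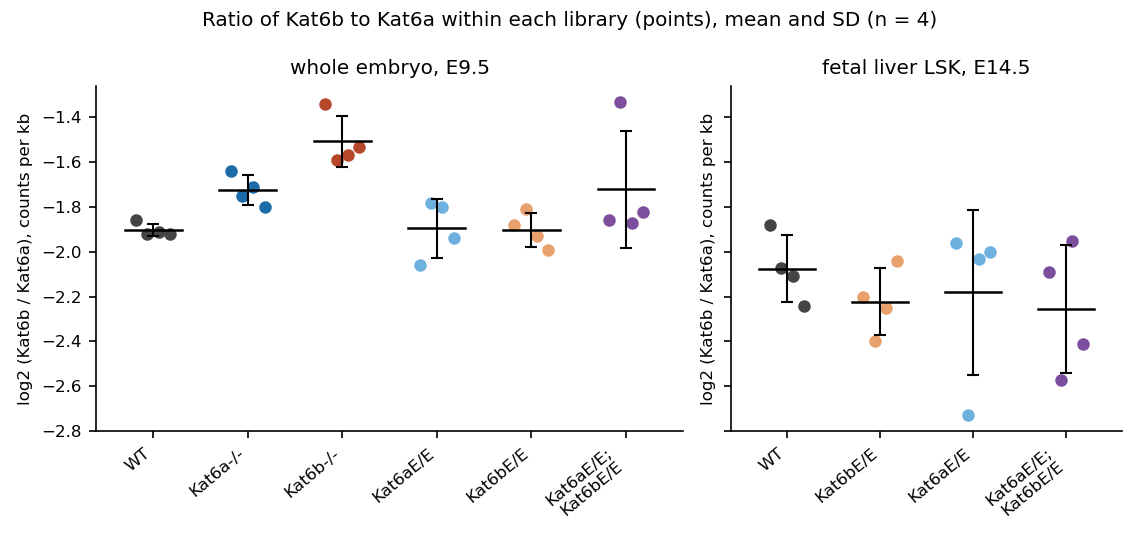
Log2 of the ratio of Kat6b to Kat6a, each in counts per kb of gene length, with 1 point per library and a bar at the mean of each genotype, for the 6 E9.5 and the 4 LSK genotypes. The 4 WT embryos lie between -1.92 and -1.86, the Kat6b-/- embryos between -1.59 and -1.34, and the LSK libraries spread from -2.73 to -1.88.

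The other 3 catalytic members varied little between embryos. Kat5, the acetyltransferase of the TIP60 complex, was at 50.7 to 61.2 CPM over the 24 embryos. Kat7, which encodes HBO1, an enzyme that acts on histones H3 and H4, was at 132.0 to 161.0 CPM. Kat8, which encodes MOF, an enzyme of histone H4, was at 29.6 to 35.9 CPM. Their group means differed by at most 1.09-fold, 1.05-fold and 1.05-fold between any of the 6 genotypes. The spread of Kat7 over the 24 embryos was at the 2.47th percentile of the SDs of the 14183 genes, that of Kat5 at the 8.46th and that of Kat8 at the 11.6th, whereas those of Kat6a and Kat6b were at the 39.4th and 59.9th. In Kat6bE/E Kat5 had a mean of 53.9 ± 2.9 CPM against 58.6 ± 2.91 in WT (log2 fold change -0.12, SE 0.0548, FDR 0.998 in limma). It was the only member with an unadjusted p below 0.05 in that comparison. Over the 5 comparisons with WT the log2 fold changes of Kat7 were between 0 and 0.05, and those of Kat8 between -0.03 and 0.03.

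Of the scaffolds, Brpf1, which is needed for the activity of KAT6A and KAT6B, was at 87.4, 91.1, 86.1 and 80.3 CPM in WT embryos and at 80.1, 75.2, 73.4 and 83.4 CPM in the double mutant. 3 of the 4 double mutants lay below the lowest WT value. The log2 fold change of -0.14 (SE 0.065, 95% CI -0.28 to -0.01) did not pass the adjustment (FDR 0.233 in limma). Brd1, which KAT7 can use like the other scaffolds, was at 127 ± 6.27 CPM in WT and 135 ± 2.28 in Kat6a-/- (SD, n=4). Its log2 fold change was 0.10 (SE 0.0493, FDR 0.317 in limma). That was the smallest FDR of any member in Kat6a-/-. Brpf3, the remaining scaffold, was at 76.5 to 100.1 CPM over the 24 embryos, and its group means lay between 84.8 CPM in the double mutant and 91.9 CPM in Kat6aE/E. None of the 3 was called in a comparison with WT.

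The small subunits did not stand out either. Ing5 was at 52.8 to 74.8 CPM, with its lowest group mean of 61.7 CPM in Kat6aE/E and its highest of 68.6 CPM in Kat6b-/-. Meaf6 was at 45.9 to 55.5 CPM, and its group means lay between 49.7 and 52.8 CPM. Neither had an unadjusted p below 0.05 against WT in any mutant.

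Across the embryos, then, the members' log2 fold changes against WT ran from -0.08 to 0.12 in Kat6a-/-, from -0.06 to 0.07 in Kat6aE/E, from -0.12 to 0.09 in Kat6bE/E and from -0.14 to 0.08 in the double mutant. In Kat6b-/- they ran from -0.04 to 0.05 apart from Kat6b itself. The number of members called was 0 of 10 in Kat6a-/-, beside 2.64% of all genes, 0 of 10 in Kat6aE/E, beside 0.275%, and 0 of 10 in the double mutant, beside 2.91%. In Kat6bE/E 0 of 10 members and 0% of all genes were called, with 626 genes at an unadjusted p below 0.05 and likewise no gene called by edgeR's quasi-likelihood test or by DESeq2. Those tools called 0 members in the other 3 comparisons too. At an unadjusted p below 0.05 there were 0 members in Kat6a-/- and Kat6aE/E, 1 in Kat6bE/E (Kat5) and 1 in the double mutant (Brpf1). A test for a difference between any of the 6 genotypes called Kat6b (FDR 0.0054 in limma) and none of the other 9, beside 3.25% of all genes. SEs of the members were 0.0369 to 0.0903 at E9.5.

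**Figure D3:**
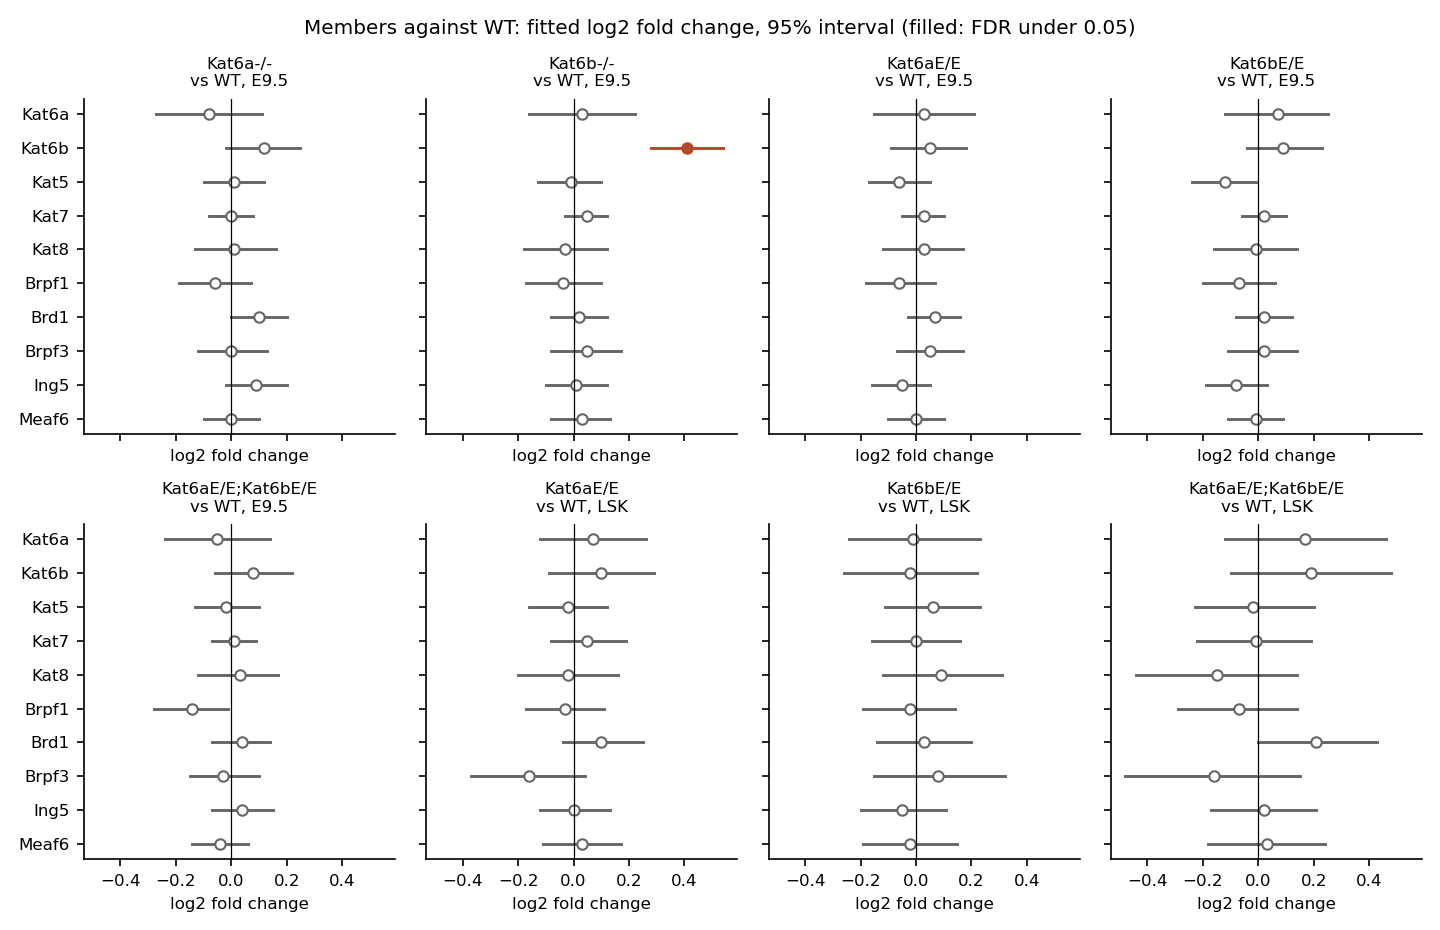
Log2 fold change against WT of the 10 members in the 5 E9.5 mutants and the 3 LSK mutants, from the limma model. The E9.5 mutants fill the upper row and the first panel of the lower row, and the LSK mutants the rest of the lower row. Points are at the estimate and bars show the 95% confidence interval. Kat6b in Kat6b-/- at 0.41 is the estimate called at FDR<0.05, and all others lie between -0.16 and 0.21.

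In LSK cells the members were described in the same order. Kat6a was at 165.0, 180.8, 181.6 and 169.1 CPM in WT, and at 184.2, 172.3, 180.3 and 184.4 CPM in Kat6aE/E. In Kat6bE/E it was at 185.9, 174.3, 128.2 and 181.5 CPM, with the lowest of all 16 values in fetus 3, and in the double mutant at 197.8, 171.9, 184.0 and 176.5 CPM. The genotypes overlapped throughout. The log2 fold changes were 0.07 in Kat6aE/E and 0.17 in the double mutant (95% CI -0.12 to 0.46), and neither was called.

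Kat6b in LSK cells was at 38.6, 37.0, 36.1 and 30.7 CPM in WT, at 34.6, 28.4, 23.1 and 38.0 CPM in Kat6bE/E, at 40.6, 22.3, 38.0 and 39.6 CPM in Kat6aE/E and at 39.98, 24.9, 40.8 and 28.5 CPM in the double mutant. Every mutant genotype held both low and high values. The log2 fold changes were -0.02 in Kat6bE/E (95% CI -0.26 to 0.22, FDR 1 in limma), 0.1 in Kat6aE/E (95% CI -0.09 to 0.29, FDR 0.727) and 0.19 in the double mutant (95% CI -0.1 to 0.48, FDR 0.838). In the double mutant the sign turned to -0.05 without surrogate variables, which fit its 4 libraries nearly completely. In Kat6aE/E, where they fit fetus 2 nearly completely, the log2 fold change was -0.04 to 0.1 over the alternatives other than omission of single libraries. In the litter with 3 WT fetuses and 1 Kat6aE/E fetus, Kat6b was at 36.1 to 38.6 CPM in WT and 40.6 CPM in Kat6aE/E, and in another litter at 34.6 CPM in a Kat6bE/E fetus and 39.98 CPM in a double mutant. The log2 ratio of Kat6b to Kat6a differed from WT by -0.15 in Kat6bE/E, -0.1 in Kat6aE/E and -0.18 in the double mutant, with exact permutation p of 0.257, 0.8 and 0.286 (0.457, 1 and 0.457 after adjustment).

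The low values of Kat6b were found in libraries with low Cd34, in all 3 mutant genotypes. In the 7 libraries below 500 CPM of Cd34, Kat6b was at 22.3 to 40.8 CPM with a median of 28.4. In the other 9 it was at 34.6 to 40.6 CPM with a median of 38. Brpf3 had the opposite order, at 78.1 to 102 CPM (median 83.2) against 62 to 89.8 CPM (median 68.3). Meaf6 was at 42.3 to 55.1 CPM in the former and 52.3 to 61.3 CPM in the latter. The threshold was set after these values were seen, no test was made across it, and the part that cell composition had in the differences between genotypes was not tested. In a model with the Cd34 class as a term in place of the 4 surrogate variables, 0 members were called.

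**Figure D4:**
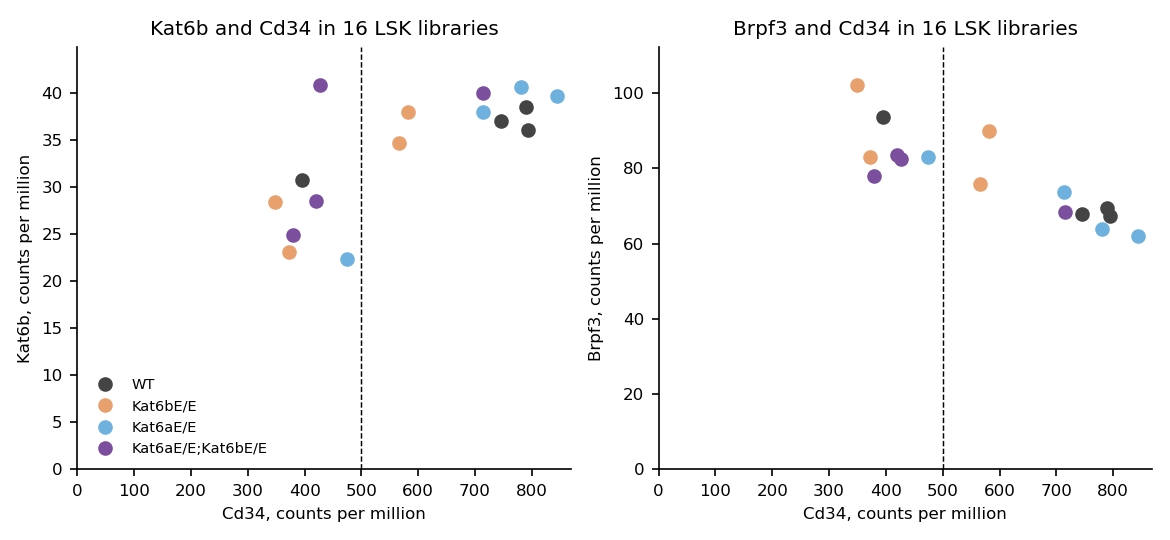
Kat6b (left) and Brpf3 (right) against Cd34, all in CPM, in the 16 LSK libraries, with 1 point per fetus and a symbol for each genotype. The dashed line marks 500 CPM of Cd34. Kat6b values below 30 CPM occur only to its left, in 5 libraries of 3 mutant genotypes, and Brpf3 reaches 102 CPM there.

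The scaffolds in LSK cells showed the widest ranges for Brpf3, at 69.4, 68.0, 67.3 and 93.6 CPM in WT and 75.9, 102.1, 83.2 and 89.8 CPM in Kat6bE/E. Fetus 4 of WT was above all other WT fetuses and within the Kat6bE/E range. The log2 fold change of Brpf3 was 0.08 in Kat6bE/E and -0.16 in both other mutants. Without WT fetus 4 it was 0.25 in Kat6bE/E, -0.05 in Kat6aE/E and 0.03 in the double mutant, none of them called. With all libraries the FDR of 0.539 of Brpf3 in Kat6aE/E was the smallest of any member there. Brpf1 was at 114.1, 113.4, 101.9 and 120.0 CPM in WT and at 109.1, 111.8, 94.8 and 94.0 CPM in the double mutant, with a log2 fold change of -0.07. When double mutant fetus 1 was left out, it was -0.31 and passed the threshold (FDR 0.0243 in limma), in a model that called 2170 of 13230 genes in the double mutant. The 3 fetuses left in it were of 1 litter and all below 500 CPM of Cd34. Brd1 had group means of 135 to 148 CPM, and its log2 fold change of 0.21 in the double mutant (SE 0.101, FDR 0.726) was the largest of the 10 in LSK cells.

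The other members of the LSK libraries stayed in narrow ranges. Ing5 was at 68.3 to 82.8 CPM and Kat7 at 127.0 to 164.0 CPM, with SDs at the 1.85th and 2.91st percentile of the 13071 genes. Kat5 was at 55.7 to 70.7 CPM, and Kat8 at 31.1 to 46.4 CPM with its highest mean of 40.7 CPM in Kat6bE/E. Of the 10 members 0 were called in Kat6aE/E, beside 1.36% of all genes, 0 in Kat6bE/E and 0 in the double mutant, each beside 0% of all genes, and 0 had an unadjusted p below 0.05 in any of the 3. Over all genes, 364 in Kat6bE/E and 896 in the double mutant had an unadjusted p below 0.05. The counts over all genes depended on some single libraries and on the model. Those in Kat6aE/E went from 178 to 1 without Kat6aE/E fetus 1 and to 43 to 197 without 1 of the other Kat6aE/E fetuses. Without surrogate variables they went to 3. Those in Kat6bE/E went from 0 to 96 without WT fetus 4, and those in the double mutant from 0 to 2170 without its fetus 1. With all libraries edgeR's quasi-likelihood test called 0 and 1 genes in Kat6bE/E and the double mutant, DESeq2 called 0 and 85, and both called 0 members. The test for any difference between the 4 genotypes called 0 members and 5.1% of all genes. SEs of the members were 0.059 to 0.148, larger than at E9.5.

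The same mutations were compared between the 2 experiments in 1 model of all 40 libraries, without surrogate variables or litter. The effect of Kat6aE/E on the members in LSK cells minus that in embryos was -0.19 to 0.12 on the log2 scale, that of Kat6bE/E -0.29 to 0.21 and that of the double mutant -0.26 to 0.12. For Kat6b these differences were -0.04, -0.29 and -0.26 (FDR 1, 0.999 and 0.554 in limma). None of the 10 was called in the 3 tests, beside 0.0661%, 0% and 2.98% of all genes. At an unadjusted p below 0.05 there was 1, Kat5 for Kat6bE/E, with log2 fold changes of -0.12 in embryos and 0.06 in LSK cells in the separate models (difference 0.21 in the common model, FDR 0.999). For the Kat6bE/E effect 547 of all genes had an unadjusted p below 0.05, and edgeR's quasi-likelihood test and DESeq2 called none.

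Between WT libraries of the 2 experiments the set differed in its scaffolds. On a common scale Brpf1 was at 87.7 ± 4.37 CPM in embryos and 109 ± 7.3 in LSK cells (SD, n=4), a log2 difference of 0.32 (SE 0.0671) and a fold of 1.25 (95% CI 1.14 to 1.38, FDR 4.79e-05 in limma). Brpf3 went the other way, from 89.4 ± 3.43 to 72.3 ± 12.3 CPM, a log2 difference of -0.29 (SE 0.0992) and a fold of 0.82 (95% CI 0.713 to 0.942, FDR 0.00943). Without WT fetus 4, the one with the high Brpf3, the log2 difference was -0.51 for Brpf3 (FDR 5.94e-06) and 0.21 for Brpf1 (FDR 0.0105). Kat6b had a log2 difference of -0.28 that was not called (FDR 0.083). The other 7 members differed by -0.08 to 0.07.

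These 2 calls among 10 stand beside 75.7% of all genes called in this comparison. The median difference of the members was 0, against -0.11 over all genes. With DESeq2 size factors in place of TMM 5 members were called, Kat6b (-0.36, FDR 0.0349), Kat5 (-0.14, FDR 0.0338) and Kat7 (-0.14, FDR 0.0371) in addition, and the values of Kat8, Brd1, Ing5 and Meaf6 turned from positive to between -0.02 and -0.01. Stage, tissue and sorting differ together between these libraries and cannot be told apart.

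Per kb of the gene length given in the files, the order of levels in WT embryos was Brd1 (25.2 ± 1.23 CPM per kb), Kat7 (23.1 ± 0.788), Kat5 (21.2 ± 1.06), Kat6a (19.6 ± 0.979), Kat8 (18.7 ± 1.08), Brpf1 (17.9 ± 0.892), Brpf3 (15.0 ± 0.578), Ing5 (14.7 ± 1.05), Meaf6 (11.3 ± 0.236) and Kat6b (5.26 ± 0.329; SD, n=4 throughout). Neighbours in this order overlapped in their 4 values except at 4 steps, from Kat7 to Kat5, from Brpf1 to Brpf3, from Ing5 to Meaf6 and from Meaf6 to Kat6b. Kat6b was thus the lowest of the 10, and Kat6a was in the middle. In WT LSK cells Brd1 was again highest at 26.5 ± 1.77 CPM per kb and Kat6b lowest at 4.41 ± 0.421. Brpf1, at 22.2 ± 1.48, moved from the sixth to the third place, and Brpf3, at 12.1 ± 2.05, from the seventh to the eighth.

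The order depends on the length used. With the length of the canonical GENCODE transcript, chosen after the values were seen, Kat7 was first at 39.8 CPM per kb, followed by Kat5 at 27.6 and Brd1 at 24.7, while Kat6a (19.6) and Kat6b (5.58) hardly moved and Kat6b was lowest by both lengths. Of the summed per-kb level of the 5 MYST genes, Kat6a made up 22.3% ± 0.902 in WT embryos and 21.8% ± 1.0 in WT LSK cells, and Kat6b 5.98% ± 0.321 and 5.19% ± 0.416. Of the 3 scaffolds, Brd1 made up 43.4% ± 1.04 and 43.6% ± 3.83, Brpf1 30.8% ± 0.664 and 36.5% ± 1.52, and Brpf3 25.8% ± 1.43 and 19.9% ± 2.85. In both experiments the share of Brd1 was the highest of the scaffolds in every WT library.

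**Figure D5:**
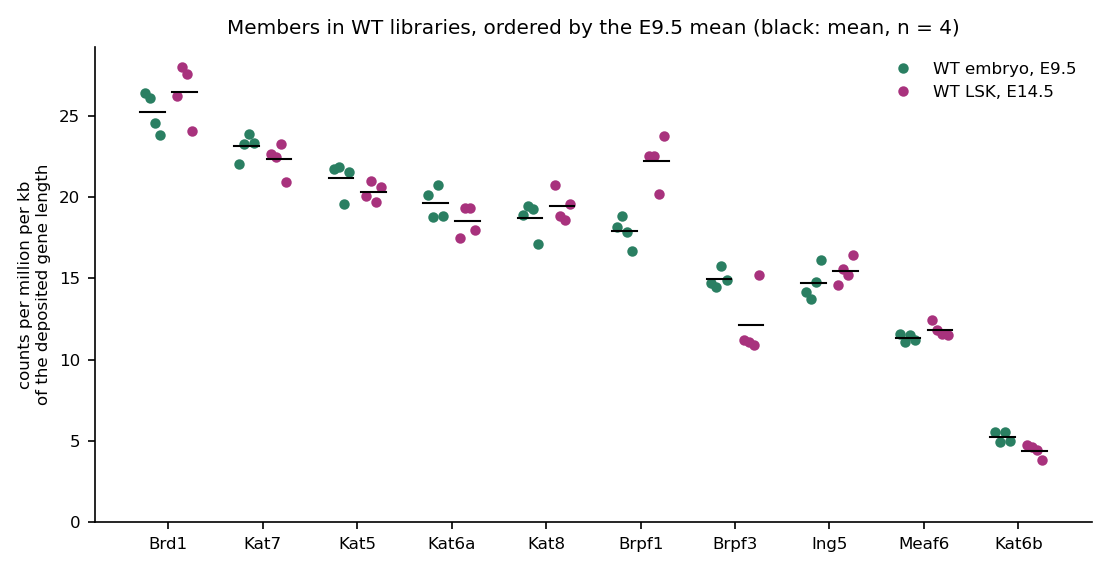
Level of the 10 members in WT, in CPM per kb of the deposited gene length on a common scale, with points for the 4 WT embryos and the 4 WT LSK libraries and bars at the means. Kat6b is lowest in both, at 5.26 and 4.41 CPM per kb. Brpf1 is higher and Brpf3 lower in LSK cells.

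Genes whose levels ran most like those of the paralogs over the 24 embryos were sought among all tested genes by Pearson correlation of log2 CPM. Libraries share genotype and litter and may share base composition, which was not measured, so these values are descriptions. For Kat6a they were Nsd1, Ago2 and Bptf (r of 0.9 each, n=24). In the 16 LSK libraries, which differ in Cd34 as above, r of the same genes was 0.58, 0.51 and 0.6. For Kat6b they were Mllt3 (r of 0.81), Prkd1 (0.73) and Rnpc3 (0.72), and in the LSK libraries r had the opposite sign for all 3, at -0.57, -0.63 and -0.59. Kat6b values of the 4 Kat6b-/- embryos and of double mutant embryo 2 lie above those of all other embryos.

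The genes of the related complexes were read beside the members. Of 15 tested genes of the KAT5 complex, 4 of the KAT7 complex, 11 of the KAT8 complexes, 6 other histone acetyltransferases and 17 histone deacetylases, 0 were called by limma in the 8 comparisons with WT, and 30 of the 424 tests had an unadjusted p below 0.05. Their median log2 fold changes were between -0.08 and 0.07. Beside these counts, 0% to 2.91% of all genes were called in the 8 comparisons. Of all genes, 626 to 2581 of 14183 per E9.5 comparison had an unadjusted p below 0.05 in limma, and 364 to 1639 of 13071 per LSK comparison. In the test for any difference between LSK genotypes 1 of the 17 deacetylases was called, beside 5.1% of all genes. It was Hdac7 (FDR 0.0407 in limma), which is named after its value was seen. Between WT LSK cells and WT embryos 10 of the 15 KAT5 complex genes (4 higher and 6 lower in LSK cells), 9 of the 11 KAT8 complex genes (2 higher, 7 lower) and 16 of the 17 deacetylases (6 higher, 10 lower) were called, as were 3 of 4 KAT7 complex genes (2 higher, 1 lower) and 2 of the 6 other acetyltransferases (both higher). These counts stand beside the 75.7% of all genes called there, and 0 of the 5 MYST genes were called with TMM and 3 with DESeq2 size factors. Of the marker genes, Sox2 was lower in Kat6a-/- embryos (log2 fold change -0.33, SE 0.0693, FDR 0.0151 in limma). The 4 embryo markers ran from -0.33 to 0.39 there. Gata2 was lower in Kat6aE/E LSK cells (log2 fold change -0.57, SE 0.0758, FDR 0.00353). It was the only LSK marker of 7 called there, and their median log2 fold change was 0.24 (range -0.57 to 1.06). Over all genes, calls in that comparison fell from 178 to 3 without surrogate variables and to 1 without Kat6aE/E fetus 1.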

How the data were processed

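RNA was sequenced from whole E9.5 embryos and from sorted E14.5 LSK cells with a TruSeq kit that does not mark strand. The authors aligned reads to mm39 and deposited the featureCounts count of read pairs per gene for each of 40 libraries, with no normalization.

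Genes were matched by identifier to a RefSeq gene table of GRCm38.p6, used only for names and types (26359 of 26411). Protein-coding genes off the Y chromosome (20951) with filterByExpr (minimum count 10) were scaled by TMM. Following the methods of the study, each experiment was fitted by voomLmFit with 4 surrogate variables and a random effect of litter (correlation 0.107 at E9.5 and 0.331 in LSK cells), and robust moderation in limma. A model of all 40 libraries (15123 genes) had no surrogate variables or block. The versions were limma 3.58.1, DESeq2 1.42.0 and edgeR 4.0.16 in R 4.3.3. The procedure was tested on simulated data. No replicate libraries agreed within sampling noise, with a chi-square per gene of 2.28 to 100.16.

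Replicate numbers did not pair libraries: libraries of the same number in different genotypes correlated at -0.23 to 0.31 at E9.5 and -0.36 to 0.37 in LSK cells. Within-litter values of Kat6a or Kat6b are given where a litter held 2 genotypes of a comparison. Ratios of paralogs were compared by exact permutation.

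The members, gene lists and tests were chosen with earlier results of these data known. All 10 members were named, and of other genes the 3 most correlated with each paralog and list genes that were called. Alternatives were 0, 2 or 6 surrogate variables, no litter block, edgeR quasi-likelihood tests, and DESeq2 and its size factors. Further alternatives were no count filter, a replicate block and omission of each library. Classes by Cd34 and transcript lengths were added after the data had been seen. Codons and positions were read from GENCODE vM39 (GRCm39). Reads were not used here, so neither the mutations nor the deletions were checked in them. The level of 1 marker gene is not reported here.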

Additional observations from a re-analysis of the deposited data

Results flagged for a closer look

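In 6 of the 100 groups formed by a member and a genotype, 1 of 4 libraries lay so far from the other 3 that its gap exceeded Dixon's 95% critical value, and chance flags about 1 in 20 groups. At E9.5 Kat6b was at 56.0 CPM in double mutant embryo 2, with the other 3 at 40.7 to 42.0, and Kat7 was at 138.0 CPM in Kat6bE/E embryo 3, with the others at 141 to 142. In LSK cells, Kat6aE/E fetus 2 had Kat6b at 22.3 CPM (the others 38.0 to 40.6) and Brpf1 at 122.0 CPM (the others 108 to 110), and it was among the 7 libraries with Cd34 below 500 CPM. WT fetus 4, also among these, had Brpf3 at 93.6 CPM, with the others at 67.3 to 69.4. Kat6aE/E fetus 1 had Ing5 at 68.3 CPM, with the others at 75.7 to 76.9.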

How the results depend on the processing

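Of 33 alternatives, 32 kept Kat6b called in Kat6b-/-. The log2 fold change was 0.38 to 0.45 when single libraries were left out (FDR 0.00209 to 0.0388) and the exception was the model without surrogate variables, in which 0 members were called in Kat6b-/- and 0 in the test for any E9.5 genotype (FDR 0.0883), in place of 1 each. Kat6b in Kat6bE/E against Kat6b-/-, with 0 members called, became 1 call in 8 of 33 alternatives (not without surrogate variables, FDR 0.986), namely with 6 surrogate variables (FDR 0.0244), in edgeR's quasi-likelihood test, in DESeq2 and with a replicate block (FDR 0.0311), and 0 to 1 calls when libraries were left out (1 without WT 4, Kat6aE/E 1, Kat6aE/E 2 or double mutant 2). In LSK double mutants it was 0 to 1, the 1 being Brpf1 without fetus 1, when 2170 of all 13230 genes were called. Between WT libraries 2 calls became 5 with DESeq2 size factors, 3 in DESeq2's own test (Kat5, FDR 0.0296) and 2 to 5 with libraries left out (4, 5 and 4 without LSK WT 1, 2 and 3), and Brpf1 and Brpf3 were called in all 14 alternatives. The cause of these changes was not tested. Models with a library left out also rest on fewer libraries. The replicate block gave Kat6b in Kat6b-/- 0.43 (FDR 0.00102), and over all genes 200 calls in place of 72. Leaving out WT embryo 2 gave 12. Of 3920 member values under alternatives 315 changed sign, 0 of them called, and the largest of these was 0.19 in size in the model reported.

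With 4 libraries per genotype the SEs of members against WT reached 0.0903 at E9.5 and 0.148 in LSK cells on the log2 scale, and a difference of -0.32 with an SE of 0.0659 (Kat6b, Kat6bE/E against Kat6b-/-) was not called. Leverage of the LSK double mutants was 0.92 to 1 with 4 surrogate variables, and their values rest on little residual information. LSK Kat6aE/E fetus 2 had a leverage of 0.98 and was likewise fitted nearly completely. At E9.5 the highest leverage was 0.88, in double mutant embryo 2. Whole-gene counts do not separate wild type from deleted transcripts, and opposite-strand overlaps are unresolved.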
